A study of Mus musculus with 9 samples.

Results

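The 4 chains of the interferon gamma and type I interferon receptors and the 4 Janus kinases, Ifngr1, Ifngr2, Ifnar1, Ifnar2, Jak1, Jak2, Jak3 and Tyk2, were followed in 9 RNA-seq libraries made from type 2 innate lymphocytes (ILC2s), lymphocytes that reside in tissues and secrete type 2 cytokines. They were taken by gene symbol from a table of 23466 genes, each of the 8 symbols matched 1 row, and all 8 passed the filter on low counts. The libraries came from wild-type C57BL/6 mice aged 10 weeks, as 3 libraries of brain meninges taken 24 h after mice received a contusion (80 kdyn) of the spinal cord, 3 of brain meninges of uninjured mice and 3 of lung of uninjured mice. Cells were sorted as CD45-positive, DAPI-negative, lineage-negative cells carrying ST2, the receptor for IL-33, and Thy1. The series text says that 5 mice were pooled per group and does not say how pools map to libraries, so p-values reflect library-to-library spread that could be technical in part or in whole. No group was labelled as sham-operated, so the contusion and the surgery around it cannot be told apart. The 8 genes were chosen with earlier results of these data known, and the set was selected on the difference of Ifngr1 between injured and uninjured meninges. That difference is therefore given as a description, without a test.

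Interferon gamma binds a receptor built from IFNGR1, the ligand-binding chain that carries JAK1, and IFNGR2, the chain that carries JAK2. Type I interferons bind IFNAR1, which carries TYK2, and IFNAR2, which carries JAK1. The kinases phosphorylate the receptor tails and then STAT proteins, which move to the nucleus and switch on target genes. JAK3 takes no part in interferon signalling, since it serves the common gamma chain of the receptors for IL-2, IL-7 and related cytokines, on which ILC2s depend. Both kinds of interferon are known to restrain ILC2 proliferation and cytokine release in mice.

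Library totals ranged from 13407277 to 18253462 counts, and the 8 genes had between 318 and 13356 counts in any 1 library. Injured meninges 2 stood apart, with 13465 genes detected against 15761 to 18452 in the other libraries, so results are also given without it where it decides them. It had the highest of the 9 values for 4 of the 8 genes, Ifngr1, Ifngr2, Jak1 and Jak3. Genes of the sort gate were present throughout. Il1rl1, which encodes ST2, lay between 1929 and 2694 CPM (counts scaled to a common library size, with TMM factors) in injured meninges, between 1864 and 2537 in uninjured meninges and between 1852 and 2410.1 in lung. Thy1, itself a gene of the gate, had 92.5, 60.1 and 51.4 CPM in injured meninges, against 279, 167 and 229 in uninjured meninges. It was the 1 of 14 listed ILC2 and sort gate genes that edgeR called for injury (adjusted p under 0.05), against 0.192% of all genes. DESeq2 called 2 of the 14, Thy1 and Rora, and 431 of 15187 genes in all. In edgeR 5 of the 14 had an unadjusted p under 0.05, against 8.94% of all genes, and 9 were positive and 5 negative. Without injured meninges 2 edgeR called none of the 14. Because these are bulk libraries, fewer cells of a type and less RNA per cell cannot be told apart.

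Stretches of promoter are shown for both chains of the interferon gamma receptor, of which 1 stood apart after injury and the other did not, and for Ifnar2, the 1 gene of the 8 with a TTCNNNGAA motif, the letters that STAT dimers are known to bind. Each is the 250 bases before the annotated transcription start, from RefSeq on GRCm38.p6, and all 8 genes had an entry in that table. The stretches are chr10:19591699-19591948 for Ifngr1, chr16:91546809-91547058 for Ifngr2 and chr16:91372533-91372782 for Ifnar2, all on the plus strand. Capitals mark GGGCGG on either strand, the letters of the GC box, and in Ifnar2 the TTCNNNGAA match.
Ifngr1: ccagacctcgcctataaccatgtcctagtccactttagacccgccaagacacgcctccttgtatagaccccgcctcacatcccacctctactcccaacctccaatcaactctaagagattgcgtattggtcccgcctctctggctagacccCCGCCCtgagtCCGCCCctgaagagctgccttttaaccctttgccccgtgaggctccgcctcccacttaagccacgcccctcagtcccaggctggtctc
Ifngr2: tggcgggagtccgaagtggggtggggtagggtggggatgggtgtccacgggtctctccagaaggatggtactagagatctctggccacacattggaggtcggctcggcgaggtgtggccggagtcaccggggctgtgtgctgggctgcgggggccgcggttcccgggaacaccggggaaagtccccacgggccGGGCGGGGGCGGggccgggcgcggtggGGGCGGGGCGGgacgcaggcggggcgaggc
Ifnar2: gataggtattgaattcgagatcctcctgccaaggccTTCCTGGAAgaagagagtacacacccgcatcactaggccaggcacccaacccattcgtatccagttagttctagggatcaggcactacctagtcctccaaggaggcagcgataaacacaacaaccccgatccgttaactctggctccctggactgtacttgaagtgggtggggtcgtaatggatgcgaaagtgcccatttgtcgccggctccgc
GGGCGG, searched on both strands, was present 2 times in the Ifngr1 stretch and 4 times in the Ifngr2 stretch, where 2 of the matches share a base. It was present in 7 of the 8 genes, all but Ifnar2, and in 32.7% of the 32851 promoter stretches of this length in the table. TTCNNNGAA was present in 1 of the 8 genes and in 7.02% of all stretches, and no match of the 2 motifs overlapped. TATAAA was found in none of the 8 and in 12.4% of all. CG dinucleotides ranged from 8 in Jak3 to 37 in Jak2, with 11 in Ifngr1 and 25 in Ifngr2, against a median of 6 over all stretches. These matches describe letters and say nothing of binding.

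The first comparison set meningeal ILC2s of injured mice against those of uninjured mice, to ask how the cells responded to injury of the central nervous system. Ifngr1, the ligand-binding chain for interferon gamma, had 258, 384 and 273 CPM in injured meninges, 88.7, 60.3 and 135 CPM in uninjured meninges and 181, 209.8 and 197 CPM in lung. Every injured library lay above every lung library, and every lung library above every uninjured meningeal library. The means were 305 ± 68.9 CPM in injured meninges, 94.6 ± 37.7 CPM in uninjured meninges and 196 ± 14.7 CPM in lung (SD over 3 libraries). The fitted injury difference was 1.69 ± 0.29 (SE) on the log2 scale, 3.22-fold, and it is this value that put the gene among those chosen. Its place among the genes at an adjusted p under 0.05 was lost without injured meninges 2 (log2 fold change 1.49), without uninjured meninges 1 (1.65), without uninjured meninges 2 (1.45) and in a fit of only the 6 meningeal libraries (1.69).

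Ifngr2, the partner chain that brings JAK2, did not follow Ifngr1. It had 32.5, 71.7 and 23.2 CPM in injured meninges, against 47.3, 35.2 and 28.5 CPM in uninjured meninges, with 41.6, 53.4 and 61.4 CPM in lung. The injured libraries covered the whole range of the uninjured meningeal ones, with injured meninges 2 highest and injured meninges 3 lowest of the 9. Its log2 fold change for injury was 0.20 ± 0.47 (SE, edgeR adjusted p = 0.948), and an interval of 2 SE either side ran from -0.74 to 1.13. Without injured meninges 2 the log2 fold change was -0.41, so its sign rested on that library.

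**Figure D1:**
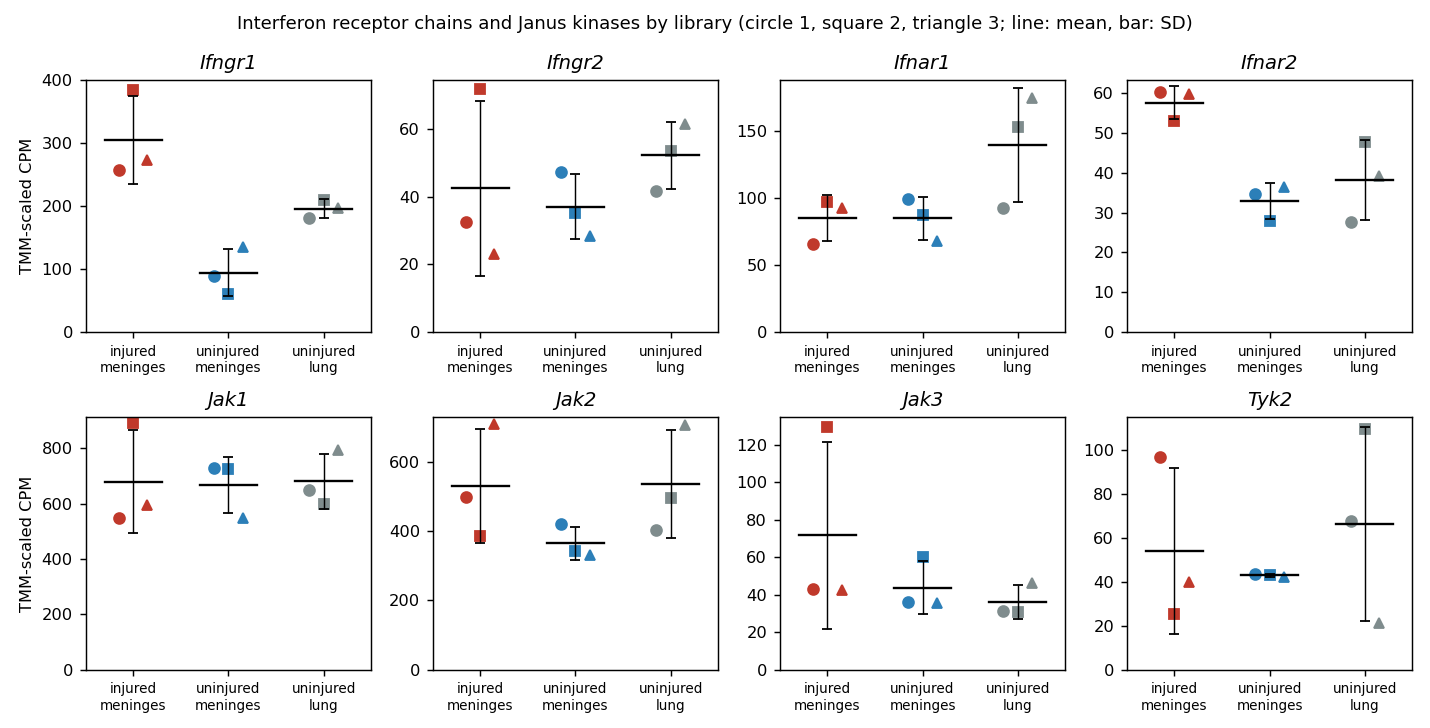
TMM-scaled CPM (vertical axes, each from 0) of the 8 genes in every library of injured meninges, uninjured meninges and uninjured lung; the horizontal line is the mean and the bar 1 SD of 3 libraries. Ifngr1 separates the 3 groups without overlap, from 258 CPM upward in injured meninges to 135 CPM at most in uninjured meninges, while Jak1 overlaps across all 3.

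Ifnar2, the chain of the type I interferon receptor that carries JAK1, had 60.1, 52.9 and 59.6 CPM in injured meninges, 34.7, 27.8 and 36.3 CPM in uninjured meninges and 27.7, 47.7 and 39.1 CPM in lung. The 3 injured libraries were the 3 highest of the 9 and lay close together. The means were 57.5 ± 4.02 CPM in injured meninges and 32.9 ± 4.52 CPM in uninjured meninges (SD, n = 3 each). The log2 fold change was 0.80 ± 0.40 (SE) and did not pass the test (edgeR adjusted p = 0.587). It stayed between 0.70 and 0.88 when each library was left out in turn. Among the 7 genes other than Ifngr1, groups did not overlap in this comparison for 1, Ifnar2, and for 12.1% of all genes tested. Those of Ifngr1, which was chosen for this difference, are left out of the count. Ifnar1, the chain that carries TYK2, had 66.1, 97.5 and 92.6 CPM in injured meninges, 99.8, 87.6 and 68.2 CPM in uninjured meninges and 92.7, 153 and 175 CPM in lung. The meningeal groups overlapped throughout, with means of 85.4 ± 16.9 CPM in injured and 85.2 ± 15.9 CPM in uninjured meninges. The log2 fold change was 0.0031 ± 0.31 (SE, edgeR adjusted p = 1), and an interval of 2 SE either side ran from -0.62 to 0.63.

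Jak1, the kinase shared by both interferon receptors and by the common gamma chain receptors, had 549, 892 and 595 CPM in injured meninges, 727, 726 and 549 CPM in uninjured meninges and 650.2, 599 and 792 CPM in lung. Its group means were nearly equal, at 679 ± 186 CPM in injured meninges, 668 ± 102 CPM in uninjured meninges and 680.4 ± 100.3 CPM in lung (SD, 3 libraries per group). The injury log2 fold change was 0.02 ± 0.22 (SE, edgeR adjusted p = 0.994), and an interval of 2 SE either side ran from -0.41 to 0.46, the narrowest of the 8 genes. Its sign turned, to -0.22 without injured meninges 2 and to -0.10 without uninjured meninges 3.

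Jak2, the kinase that IFNGR2 carries, had 498, 386 and 709 CPM in injured meninges, 419.6, 343 and 332 CPM in uninjured meninges and 404, 495 and 707 CPM in lung. The lowest injured library, number 2, fell inside the uninjured meningeal range, and the other injured libraries lay above it. The log2 fold change for injury was 0.54 ± 0.25 (SE), with an unadjusted p of 0.0488 and an edgeR adjusted p of 0.556. Leaving out each library in turn gave values between 0.28 and 0.73.

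Jak3, the kinase of the common gamma chain, had 43.3, 129 and 42.5 CPM in injured meninges, 35.9, 60.1 and 35.5 CPM in uninjured meninges and 31.5, 30.7 and 46.4 CPM in lung. Injured meninges 2 held more than any other library, and the other injured libraries lay inside the uninjured meningeal range. The log2 fold change for injury was 0.71 ± 0.48 (SE, edgeR adjusted p = 0.713) and -0.032 without injured meninges 2. In that library the 9 T cell markers summed to 105 CPM, of which Cd3g, a chain of the T cell receptor complex, made up 91.9 CPM, against sums of 10.7 to 51.9 CPM in the other libraries. Of the 6 T cell markers tested for injury, 2 were positive and 4 negative, with a median log2 fold change of -0.62. The part of T cells in the level of Jak3 was not tested. Annotated Jak3 exons share 404 bases with Insl3, a neighbour on the same strand that held 309 counts over the 9 libraries, beside 6804 counts for Jak3.

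Tyk2, the kinase that IFNAR1 carries, varied widely between libraries of injured meninges and of lung. It had 96.8, 25.3 and 40.0 CPM in injured meninges, 43.7, 43.0 and 42.2 CPM in uninjured meninges and 67.7, 109 and 21.3 CPM in lung. The uninjured meningeal libraries were almost equal, while the highest exceeded the lowest 3.83-fold in injured meninges and 5.13-fold in lung. The log2 fold change for injury was 0.33 ± 0.55 (SE, edgeR adjusted p = 0.914), and -0.39 without injured meninges 1. Annotated Tyk2 exons overlap an antisense gene, 1700084C06Rik, by 554 bases. Whether counting used strand is not given, so reads of the overlap cannot be told apart, but the antisense gene held 173 counts over the 9 libraries, beside 7592 for Tyk2.

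Over the whole table, 29 of 15117 genes, 0.192%, were called in the injury comparison, and 1 of the 8 genes, Ifngr1, was among them. Since Ifngr1 was chosen for that difference, nothing is read from this count. None of the other 7 passed in edgeR or in DESeq2, and 1 of them, Jak2, had an unadjusted p under 0.05, as had 8.94% of all genes tested. The median log2 fold change of the 7 genes other than Ifngr1 was 0.33, against -0.0047 over all genes tested. Without injured meninges 2 the median of the 7 was -0.032, so its sign rested on that library, and with the replicate block it was 0.21.

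**Figure D2:**
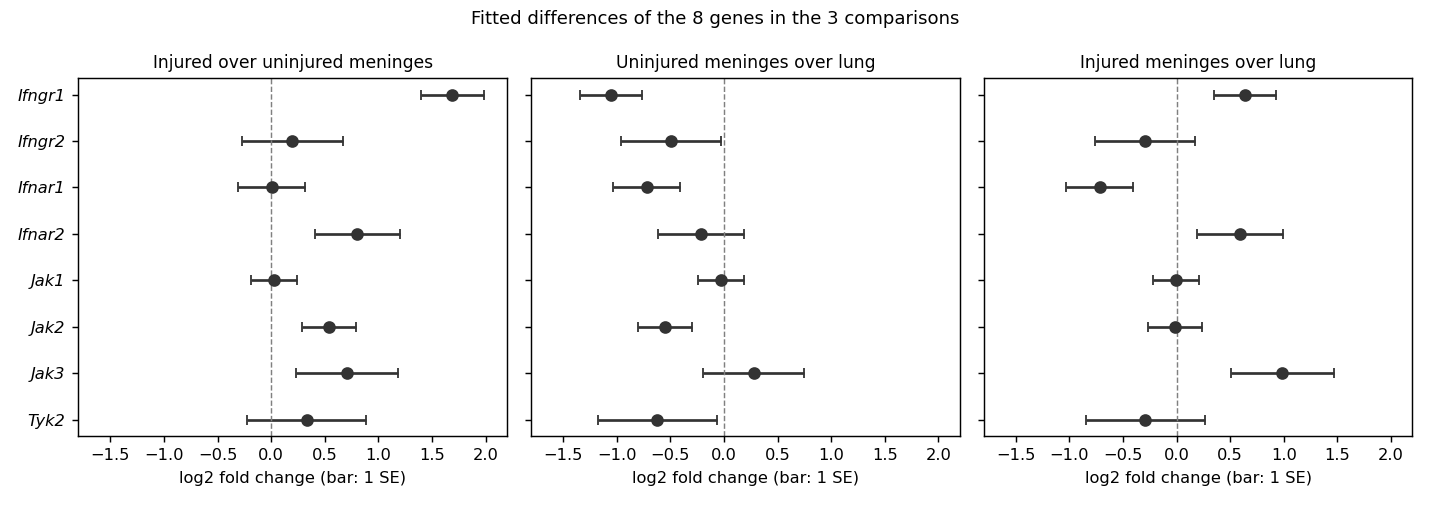
Log2 fold changes (horizontal axes) of the 8 genes with 1 SE either side, for injured over uninjured meninges, uninjured meninges over lung and injured meninges over lung. Ifngr1 lies farthest from 0 in the first 2 panels, at 1.69 and -1.05, and Jak1 lies next to 0 in all 3.

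Markers of other cell types were present in every group, and those of B cells summed to less in each library of injured meninges than in any of uninjured meninges. The 12 monocyte and macrophage markers in the table summed to 178, 85.7 and 67.9 CPM in injured meninges, 108, 65.8 and 48.6 CPM in uninjured meninges and 369, 34.6 and 492 CPM in lung, with 9 of 11 tested members positive in the injury comparison, none called by edgeR, 2 with an unadjusted p under 0.05 and 1, Cd68, called by DESeq2. Lyz2, their most abundant member, had 71.8, 9.47 and 7.71 CPM in injured meninges, against 41.1, 15.8 and 3.69 CPM in uninjured meninges. The sums of the meningeal groups overlapped. The 9 B cell markers summed to 59.9, 137 and 33.1 CPM in injured meninges, against 722, 214 and 947 CPM in uninjured meninges, with 5 of the 9 negative and 4 positive and 2 at an unadjusted p under 0.05. Most of each uninjured sum was Ighm, the heavy chain of immunoglobulin M, which had 47.1, 59.1 and 28.6 CPM in injured meninges, against 667, 184 and 886 CPM in uninjured meninges. It fell by 3.69 ± 0.48 on the log2 scale (SE, edgeR adjusted p = 0.00346), a call that DESeq2 also made. The call was lost without injured meninges 1 (edgeR adjusted p = 0.0750), without injured meninges 2 (0.0919), with no filter on low counts (0.0772) and with the replicate block (0.0716). Beside these marker counts, 8.94% of all genes tested for injury had an unadjusted p under 0.05 in edgeR, and DESeq2 called 431 of 15187. The part of these other cell types in the levels of the 8 genes was not tested.

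The second comparison set uninjured meningeal ILC2s against lung ILC2s of uninjured mice, to ask how the cells differ between tissues. Since it uses the same uninjured meningeal libraries as the injury comparison, the values of both are not independent. None of the 8 genes was called by edgeR, against 0.635% of all genes tested. Of the 7 genes other than Ifngr1, 2 had an unadjusted p under 0.05, as had 7.98% of all genes. Ifngr1 averaged 94.6 ± 37.7 CPM in uninjured meninges and 196 ± 14.7 CPM in lung, which differed by -1.05 ± 0.29 on the log2 scale (SE, edgeR adjusted p = 0.161). DESeq2 called it (adjusted p = 0.0493), among 535 of 15187 genes. It was also called by edgeR with no filter on low counts (adjusted p = 0.0476), among 193 of 23466 genes. Over all 15 alternatives the adjusted p ranged from 0.0476 to 0.585. None of the 7 genes other than Ifngr1 had groups without overlap here, against 18.2% of all genes. Those of Ifngr1 did not overlap. Since its uninjured meningeal values entered its choice, nothing is read from that or from its calls and p-values in this comparison. Ifnar1 averaged 85.2 ± 15.9 CPM in uninjured meninges and 140.2 ± 42.6 CPM in lung, a log2 fold change of -0.72 ± 0.31 (edgeR adjusted p = 0.541), with the lung libraries 2 and 3 above every meningeal one. Jak2 averaged 365 ± 47.7 CPM in uninjured meninges and 535 ± 156 CPM in lung, a log2 fold change of -0.55 ± 0.25 (edgeR adjusted p = 0.595). Ifngr2, Ifnar2, Jak1 and Tyk2 had log2 fold changes between -0.62 and -0.03, and Jak3 had 0.28 ± 0.47, with edgeR adjusted p between 0.931 and 0.996. The median of the 7 genes other than Ifngr1 was -0.49, against 0.0019 over all genes tested, and it was -0.13 without lung 2 and -0.30 without lung 3. Lung epithelial markers summed to 4.0 to 11.6 CPM in uninjured meninges and 685 to 2168 CPM in lung, and endothelial markers to 64.7 to 276 CPM in uninjured meninges and 249 to 704 CPM in lung. The most abundant of each were Scgb1a1, a secretory protein of club cells, with at most 1.03 CPM in uninjured meninges and 613 to 1456 CPM in lung, and Pecam1, an adhesion molecule of endothelium, with 40.8 to 88.0 CPM in uninjured meninges and 78.3 to 194 CPM in lung. Fibroblast markers summed to 4.65 to 82.0 CPM in uninjured meninges and 107 to 284 CPM in lung, with 6 of 8 negative and 2 positive. Col3a1, their most abundant member, had 0 to 17.5 CPM in uninjured meninges and 11.4 to 80.6 CPM in lung. EdgeR called 1 of 7 tested epithelial markers, Sftpa1, and 1 of 8 fibroblast markers, Dpt, against 0.635% of all genes. The part of these cell types in the levels of the 8 genes was not tested here.

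To order the 3 group levels, injured meninges were also set against lung, where tissue and injury both differ. It uses the same injured libraries as the injury comparison, so its Ifngr1 value is not independent of the choice of that gene. None of the 8 genes was called by edgeR or DESeq2, against 1.05% of all genes by edgeR. Of the 7 genes other than Ifngr1, 1 had an unadjusted p under 0.05, as had 13.3% of all genes. Ifngr1 stood in the order injured meninges, lung, uninjured meninges, and the step between injured meninges and lung was 0.64 ± 0.29 on the log2 scale (SE, edgeR adjusted p = 0.346). Of the 7 genes other than Ifngr1, 1, Ifnar2, had groups that did not overlap in this comparison, as had 17.8% of all genes tested. Ifnar2 was highest in injured meninges and lowest in uninjured meninges, with neither step past the test. Ifnar1 was highest in lung, with meningeal groups that overlapped each other. Jak3 was highest in injured meninges through library 2, with 0.99 ± 0.48 over lung (edgeR adjusted p = 0.393). For Ifngr2, Jak1, Jak2 and Tyk2, all 3 groups overlapped one another.

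Levels of different genes can be compared only per length, here as CPM per kilobase of merged annotated exon (GENCODE M21). Jak1 and Jak2 were the most abundant kinases and Ifngr1 the most abundant receptor chain. Over the 9 libraries Jak2 averaged 94.8 ± 28.4 and Jak1 93.5 ± 16.3 CPM per kb (SD over the 9 libraries of 3 groups), so these genes did not differ beyond their spread. Jak3 averaged 9.45 ± 5.78 and Tyk2 7.92 ± 4.47 CPM per kb, also within each other's spread. Ifngr1 had 107 ± 24.2 CPM per kb in injured meninges, 33.2 ± 13.2 in uninjured meninges and 68.8 ± 5.15 in lung. In rank among 15067 genes tested with a length, it lay at the 99.3rd percentile in injured meninges, the 95.1st in uninjured meninges and the 98.3rd in lung. Ifnar1, Ifnar2 and Ifngr2 averaged 17.4 ± 6.17, 12.9 ± 3.80 and 11.6 ± 4.25 CPM per kb over the 9 libraries.

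Within each library, the ratio of receptor partners per length is free of differences in depth. Ifngr1 exceeded Ifngr2 in every library, 10.5-, 7.09- and 15.6-fold in injured meninges, 2.48-, 2.26- and 6.27-fold in uninjured meninges and 5.74-, 5.20- and 4.26-fold in lung. All 3 injured ratios lay above all others, and since Ifngr1 enters them they are a description. Ifnar1 over Ifnar2 was 0.62, 1.03 and 0.87 in injured meninges, 1.61, 1.76 and 1.05 in uninjured meninges and 1.87, 1.80 and 2.51 in lung. The injured ratios were the 3 lowest, although the gap between injured meninges 2 and uninjured meninges 3 was narrow. Among the 4 kinases, Jak1 and Jak2 together made up most of the summed level in each library. Jak1 took 38.5%, 54.1% and 34.7% of it in injured meninges, against 51.0%, 54.0% and 49.1% in uninjured meninges, with 48.4%, 40.8% and 41.8% in lung. Jak3 reached 10.6% in injured meninges 2 and took between 2.83% and 6.03% in the other libraries.

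**Figure D3:**
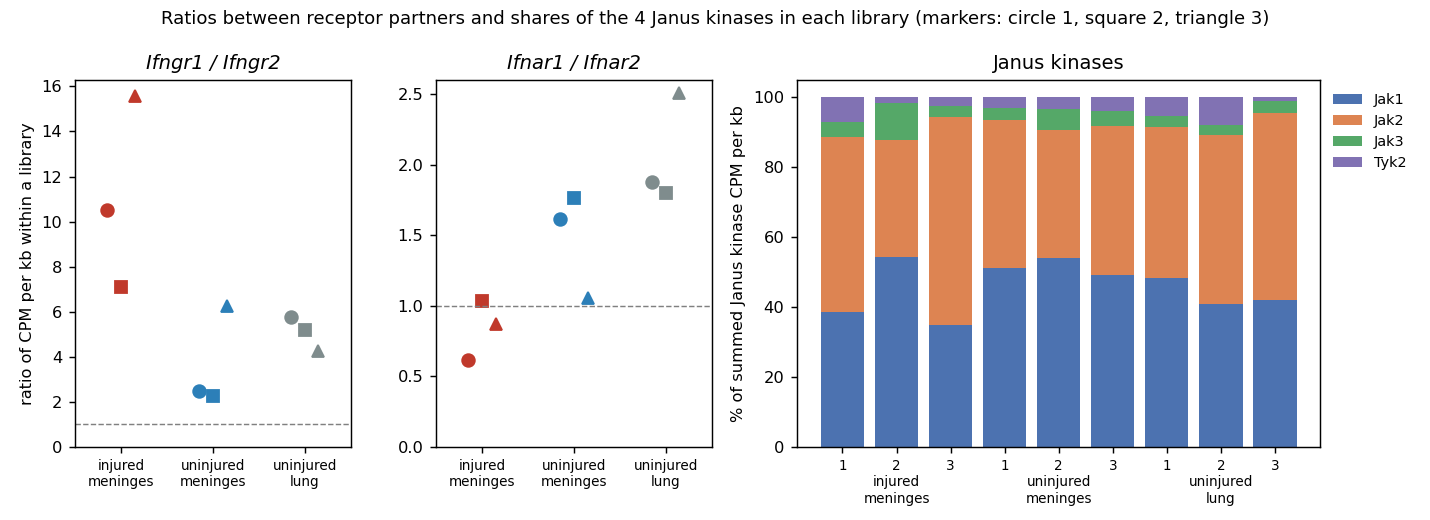
Ratio of Ifngr1 to Ifngr2 and of Ifnar1 to Ifnar2 in CPM per kilobase within each library (left and middle, dashed line at 1), and the share of each of the 4 Janus kinases in their summed CPM per kilobase (right, in percent). The injured ratios lie highest for the interferon gamma receptor, at 7.09 or more, and lowest for the type I receptor, at 1.03 or less.

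Ifnar2, Ifnar1 and Ifngr2 lie together on chromosome 16, in the annotated order Ifnar2, Gm21970 (a predicted gene), Il10rb, Ifnar1 and Ifngr2, while Ifngr1 lies on chromosome 10. Gm21970 shares 315 exon bases with Ifnar2 and had no row in the table. Il10rb, which encodes a shared chain of the IL-10 and interferon lambda receptors, had 5.38, 32.9 and 11.3 CPM in injured meninges, against 19.6, 16.3 and 12.9 CPM in uninjured meninges, or 0.02 ± 0.77 on the log2 scale (SE, edgeR adjusted p = 1). The neighbours on the chromosome thus had injury log2 fold changes of 0.80, 0.02, 0.0031 and 0.20 in that order, none of which passed the test. Among the 8 listed genes of this stretch, the most abundant was Son, which encodes a splicing cofactor, with 766, 925 and 1150 CPM in injured meninges, against 854, 985 and 1174 CPM in uninjured meninges, in overlapping groups.

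Of the other genes of the pathway, none of the 8 genes of the STAT and IRF9 list was called in the injury comparison by edgeR, where 1 had an unadjusted p under 0.05, and DESeq2 called 1, Stat4. Over all genes tested for injury, 8.94% had an unadjusted p under 0.05 in edgeR, and DESeq2 called 431 of 15187. Stat4, which signals from the IL-12 receptor and can be activated by type I interferons, had 136, 223 and 216 CPM in injured meninges, against 90.5, 83.8 and 109 CPM in uninjured meninges, or 1.02 ± 0.27 on the log2 scale (SE, edgeR adjusted p = 0.230). It was the 1 gene of these 8 whose groups did not overlap, against 12.1% of all genes tested. Stat3, the most abundant of the list, had 209, 65.2 and 157 CPM in injured meninges, against 163, 162 and 253 CPM in uninjured meninges. Stat2, a transcription factor of type I interferon signalling, had 41.3, 17.7 and 81.3 CPM in injured meninges, against 47.3, 51.7 and 161 CPM in uninjured meninges. The median of the list was -0.14, against -0.0047 over all genes, and 0.02 without injured meninges 2.

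Among 16 negative regulators, none was called by edgeR or DESeq2 and none had an unadjusted p under 0.05. Socs1, an inhibitor of JAK1 and JAK2 that interferon gamma induces, had 9.26, 4.45 and 12.7 CPM in injured meninges, against 23.5, 23.4 and 17.7 CPM in uninjured meninges, without overlap (log2 fold change -1.29 ± 0.77, edgeR adjusted p = 0.673). Groups did not overlap for 2 of the 16, lower in injured meninges, and for 12.1% of all genes tested. The most abundant regulator was Ptprc, the phosphatase CD45, with 1377 to 2069 CPM in injured meninges and 1301 to 1706 CPM in uninjured meninges. Of 28 tested genes of other receptor chains that use Janus kinases, none was called by edgeR, 4 had an unadjusted p under 0.05, and DESeq2 called Il10ra and Ghr. Beside them, 8.94% of all genes had an unadjusted p under 0.05, and DESeq2 called 431 of 15187 genes. Il10ra, the ligand-binding chain for IL-10, had 39.3, 175 and 80.2 CPM in injured meninges, against 19.8, 22.5 and 33.3 CPM in uninjured meninges, without overlap (log2 fold change 1.96 ± 0.49, edgeR adjusted p = 0.189). Il7r, the most abundant of them, had 1671, 2218 and 2368 CPM in injured meninges, against 1531, 1286 and 1084 CPM in uninjured meninges, also without overlap (0.68 ± 0.18, edgeR adjusted p = 0.219). Of the 28, 3 were higher and 1 lower in injured meninges without overlap, against 12.1% of all genes tested in either direction. Ghr went the other way, with 0.06, 0 and 0.13 CPM in injured meninges, against 2.39, 0.06 and 1.21 CPM in uninjured meninges (-4.09 ± 1.32, edgeR adjusted p = 0.376). Of the 28, 14 were positive and 14 negative. The list's median was -0.02, and -0.50 without injured meninges 2.

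Among 28 genes known to respond to interferon gamma, which include immunoproteasome subunits, guanylate-binding proteins and antigen presentation genes, 23 had negative and 5 positive log2 fold changes for injury, and none was called by edgeR. The list summed to 833, 1007 and 963 CPM in injured meninges, 1341, 1317 and 1355 CPM in uninjured meninges and 1001, 894 and 1009 CPM in lung. The injured sums lay below every uninjured meningeal sum. The B cell markers also summed lower in injured meninges, to 59.9, 137 and 33.1 CPM, against 722, 214 and 947 CPM in uninjured meninges. Most of each uninjured sum was Ighm, and of the 9 markers 5 were negative and 4 positive in the injury comparison. B cells are known to express the class II antigen presentation genes of the list. The part of B cells in the sums of the list was not tested. The list's median log2 fold change for injury was -0.70, with 7 members at an unadjusted p under 0.05 and 3, Psmb9, Gbp6 and Cxcl10, called by DESeq2. In edgeR these had log2 fold changes of -2.88, -2.93 and -9.04, the last with no counts in injured meninges. Across all genes, 8.94% had an unadjusted p under 0.05, and DESeq2 called 431 of 15187. Gbp4, the most abundant, had 174, 107 and 221 CPM in injured meninges, against 221, 307 and 299 CPM in uninjured meninges (-0.72 ± 0.27, edgeR adjusted p = 0.478). Irgm1, an immunity-related GTPase and 1 of the 5 positive genes, had 71.8, 175 and 87.4 CPM in injured meninges and 78.3, 55.4 and 67.9 CPM in uninjured meninges (0.73 ± 0.39, edgeR adjusted p = 0.623). Irgm1 is named because edgeR called it for injured meninges against lung (2.19 ± 0.41, edgeR adjusted p = 0.0157), where 1.05% of all genes were called. Of 22 tested type I response genes, none was called by edgeR or DESeq2 in the injury comparison, and 3 had an unadjusted p under 0.05, as had 8.94% of all genes. Of the 22, 14 were negative and 8 positive, and the median was -0.54. Their sums overlapped, at 357, 418 and 433 CPM in injured meninges, against 517, 329 and 585 CPM in uninjured meninges. Ddx58, a sensor of viral RNA and the most abundant of them, had 135, 157 and 137 CPM in injured meninges, against 115, 104 and 137 CPM in uninjured meninges (0.26 ± 0.27, edgeR adjusted p = 0.844). Ifit1, an antiviral effector, had 2.57, 10.7 and 5.01 CPM in injured meninges, against 33.8, 20.5 and 17.8 CPM in uninjured meninges (-1.98 ± 0.84, edgeR adjusted p = 0.517). Of 11 interferon ligand genes, 2 were in the table. Ifnk, an interferon known from keratinocytes, lay between 0.836 and 8.91 CPM in injured meninges, between 0.544 and 1.48 CPM in uninjured meninges and between 1.18 and 4.98 CPM in lung. Ifng, the gene of interferon gamma, had no count in the 3 injured libraries, and in the others it reached at most 0.13 CPM, below the 0.163 to 0.239 CPM that 3 counts, the limit a count of 0 allows, stand for in these libraries.

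The genes with the profile most like that of Ifngr1 were sought among 8113 genes that averaged 10 CPM or more, by the root mean square difference of log2(CPM + 0.5) over the 9 libraries after each gene was centred on its own mean. The nearest were Ctla2a at 0.28, Lmo4 at 0.30, Gm44249 at 0.30, Man2a2 at 0.35 and Bak1 at 0.36, against a median of 0.99 over all genes compared. Ctla2a, which encodes a cysteine protease inhibitor, had 121, 185 and 131 CPM in injured meninges, 39.0, 29.7 and 34.3 CPM in uninjured meninges and 82.6, 82.9 and 74.0 CPM in lung. Lmo4, a LIM-domain transcription cofactor, had 623, 1058 and 807 CPM in injured meninges, 205, 185 and 230.2 CPM in uninjured meninges and 315, 522 and 379 CPM in lung. Both were highest in injured meninges 2, as Ifngr1 was, which follows in part from their choice by likeness to it over these libraries. Of the other 7 genes of the receptors and kinases, Ifnar2 came nearest, at 0.53 and rank 107, and Tyk2 was farthest, at 1.09 and rank 4949. Ifngr2, the chain with which IFNGR1 forms the receptor, ranked 2278.

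**Figure D4:**
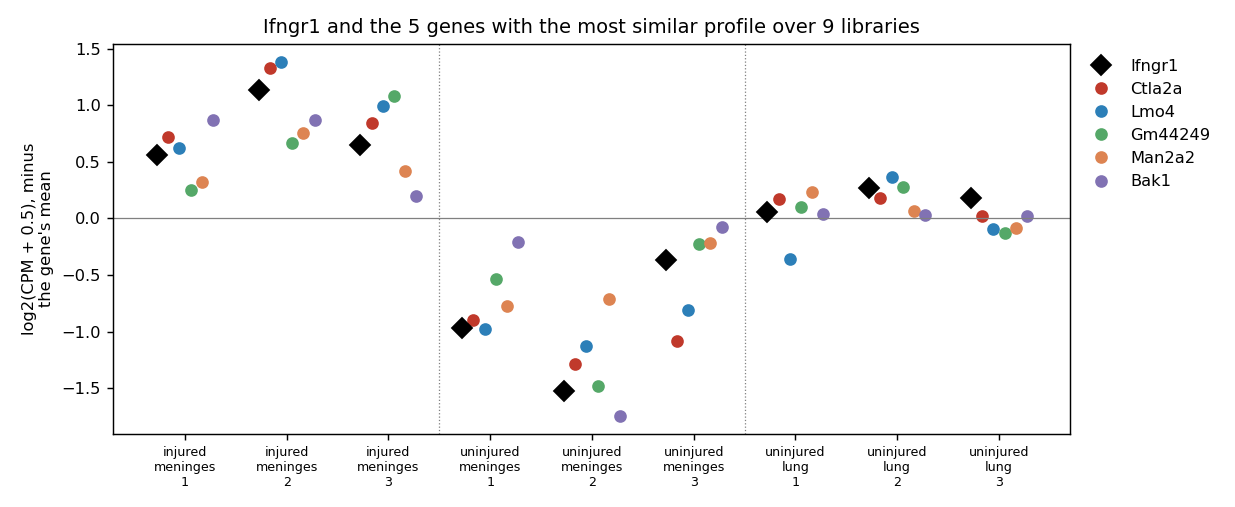
Log2(CPM + 0.5) minus each gene's mean over 9 libraries (vertical axis) for Ifngr1 (black diamonds) and the 5 genes with the smallest difference from it, by library. The genes lie above 0 in injured meninges, below 0 in uninjured meninges and near 0 in lung.

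**Figure D5:**
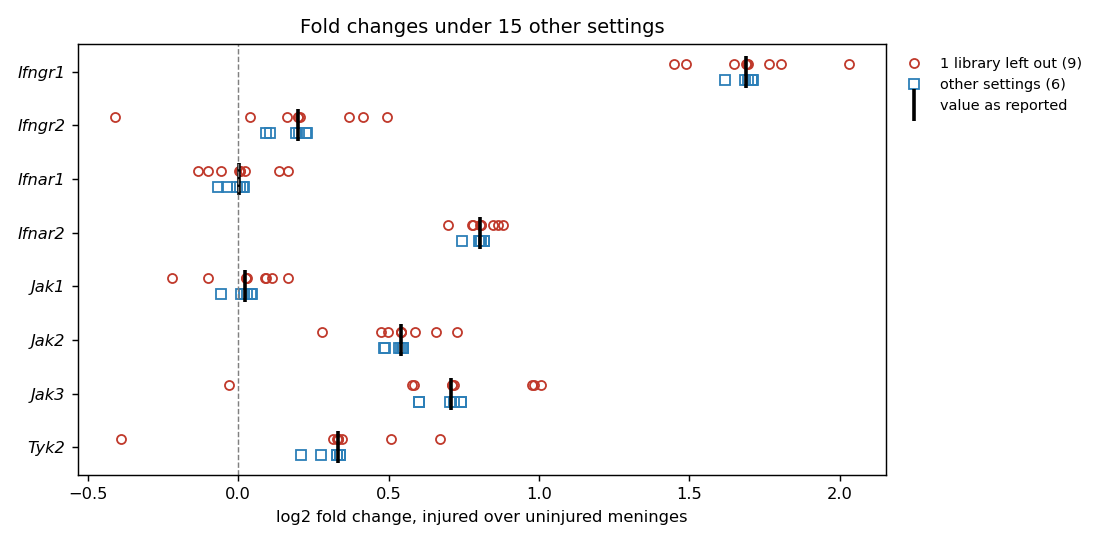
Log2 fold change of each of the 8 genes, injured over uninjured meninges (horizontal axis), as reported (black tick), with each of 9 libraries left out (red circles) and under 6 other settings (blue squares). Ifngr1 lies between 1.45 and 2.03 and Ifnar2 between 0.70 and 0.88, while Ifngr2, Ifnar1, Jak1, Jak3 and Tyk2 have values on both sides of 0.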

How the data were processed

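The authors deposited raw read counts per gene, whole numbers with no normalization. The submitters' processing notes list FastQC, STAR and HTSeq and name mm9 as build, without versions. Per the labels' protocols, RNA was extracted with a PicoPure kit and then amplified (Ovation RNA-Seq System V2), so reads are not independent molecules and limits from counts cover counting error only. Library totals were 13407277 to 18253462 counts. Symbols were given for 15969 genes, and the other genes were named by identifier from a reference list. Every pair of libraries differed beyond sampling noise (lowest chi-square per degree of freedom 62.8).

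The tests were edgeR's robust quasi-likelihood F tests (version 4.0.16, R 4.3.3). Filtering with filterByExpr by group left 15117 genes. TMM (trimmed mean of M values) factors were used, and 1 fit over 9 libraries gave each comparison, with Benjamini-Hochberg adjustment over all genes and calls at an adjusted p under 0.05. Standard errors are the fold change over the square root of F. Alternatives were DESeq2 1.42.0, other scaling, no filter, 6-library fits, a replicate block and leaving out each library. The median SE for injury was 0.95 on the log2 scale, or 0.27 above 100 CPM. On simulated counts of 14423 genes for the injury comparison, with changed genes drawn from those of at least 20 CPM, 2% of genes changed 2-fold, 56% changed 4-fold, 78% changed 8-fold and 92% changed 16-fold were recovered.

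Exon lengths and overlaps came from GENCODE M21 (GRCm38), which is not the build named by the submitters, and promoter sequence from RefSeq on GRCm38.p6. Members and lists were chosen with earlier results of these data known. Named were all 8 genes, from each pathway list the most abundant member and some of those with the smallest p, the genes nearest Ifngr1, and the most abundant member of the marker lists discussed. The rule also picked Stat5a, Pias2, Sh2b3, Isg15, Isg20 and Dnajc28, none of them called, for which no value is given. It picked Psmb9, Gbp6 and Cxcl10 too, whose levels by library are not given. Of its picks from the pathway lists, edgeR called Ghr, Cxcl10 and Irgm1 for injured meninges against lung. Il10rb, Ifng, Thy1, Rora, Cd68, Sftpa1 and Dpt lie outside this rule and were chosen after their values were seen.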

Additional observations from a re-analysis of the deposited data

How the results depend on the processing

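Ifngr1 was chosen for its injury difference, which ranged from 1.45 to 2.03 over 15 alternatives, and nothing is read from that range. Ifnar2 kept its sign in all 3 comparisons under the 15 alternatives. No member other than Ifngr1 was called in any comparison under any of them.

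The number of genes called in the injury comparison was 29 as reported, 431 by DESeq2, 78 with no filter, 12 with only the 6 libraries compared and 18 to 27 with 1 library left out. For uninjured meninges against lung it was 96 as reported, 535 by DESeq2, 193 with no filter, 226 with only the 6 libraries compared and 51 to 196 with 1 library left out. For injured meninges against lung it was 159 as reported, 1107 by DESeq2, 296 with no filter and 54 to 230.0 with 1 library left out. The cause of these differences was not tested, beyond the smaller number of libraries in some fits.

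Members with log2 fold changes near 0 turned sign, and so did some farther from 0. Among the latter were Jak3 and Tyk2 for injury, at 0.71 and 0.33 as reported. Using library totals without TMM scaling, an alternative chosen after seeing the data, the injury value was -0.066 for Ifnar1 and -0.056 for Jak1. The same scaling gave 0.068 for Jak1 in uninjured meninges against lung, and 0.012 for Jak1 and 0.036 for Jak2 in injured meninges against lung. With only the 6 libraries compared, the injury value of Ifnar1 was -0.0036, and Jak1 in injured meninges against lung had 0.0018. Leaving out 1 library gave injury ranges of -0.41 to 0.49 for Ifngr2, -0.13 to 0.16 for Ifnar1, -0.22 to 0.16 for Jak1, -0.032 to 1.01 for Jak3 and -0.39 to 0.67 for Tyk2. In uninjured meninges against lung the ranges were -0.13 to 0.10 for Jak1 and -0.019 to 0.49 for Jak3. In injured meninges against lung they were -0.25 to 0.12 for Jak1, -0.28 to 0.24 for Jak2 and -1.03 to 0.26 for Tyk2.

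The titles number the replicates 1 to 3 in each group. Deviations of same-numbered libraries from their group means correlated between -0.02 and 0.12 over 8111 genes, over 0.1 in 1 of 9 pairs, so the numbers were not taken as pairs. With the replicate block, 43 genes were called for injury, 136 for uninjured meninges against lung and 183 for injured meninges against lung. The blocked injury value was 1.71 for Ifngr1 and -0.037 for Ifnar1.

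At this depth and replication, the standard error of Jak1 was 0.22 and that of Tyk2 0.55 on the log2 scale, so differences of the size seen for Ifngr2, Jak3 and Tyk2 were not detectable.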
